A study of Homo sapiens with 4 samples.

Results

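The 51 genes described here encode transcription factors, and partner proteins of such factors, that set the identity of blood stem cells and of the red cell, platelet, myeloid and lymphoid lineages. They were taken as a named list from the 20037 protein-coding genes of the RefSeq table for GRCh38, and all 51 were found there. A peak was credited to a gene if its summit fell in the gene body, or no more than 100 kb from it and closer to no other protein-coding gene. The list was sorted by best known role into 17 stem cell and early progenitor genes, 11 erythroid, 3 megakaryocyte, 6 myeloid and 14 lymphoid genes.

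The study used chromatin immunoprecipitation sequencing (ChIP-seq) on human cells that the labels name HSC and describe as stem cells and progenitors. No treatment is named for the control group, and the other group, grown in medium with serum like the control cells, received transforming growth factor β1 (TGF-β1) at 20 ng/mL for 2 h. Each group had 1 ChIP library and 1 input library, which is sheared chromatin without immunoprecipitation. A treatment note shared by all 4 libraries also names GDF11 at 100 ng/mL, without saying which cells it refers to. Neither the antibody nor the number of donors or cultures behind the cells is given in the sources used here. Peak lists hold no RNA, so the labelled cell type could not be checked against marker expression. With 1 library per group there was no replicate error and no test between conditions, and the intervals below cover counting error only.

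Blood lineage factors act in sets. GATA factors, the basic helix-loop-helix protein TAL1 and the bridging proteins LMO2 and LDB1 bind DNA together, RUNX1 binds with its partner CBFB, and ETS factors such as ERG and FLI1 occupy many of the same enhancers in stem cells. As cells commit, GATA1 and KLF1 take over red cell genes, SPI1 and the C/EBP proteins myeloid genes, and EBF1 and PAX5 B cell genes. TGF-β1 is a known brake on the division of blood stem cells, and its SMAD proteins are recruited to DNA beside the lineage factors of the cell.

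With duplicates removed, 36280696 tags were left for the control ChIP and 45984282 for the TGF-β1 ChIP, and the lists held 5307 and 15993 peaks. Where the local background was at its genome-wide value, 1.99 and 2.32 tags respectively, the weakest peaks called had a pileup (the ChIP tag coverage at the summit) of 10 and 9. A site without a peak was therefore not detectable at this depth by the authors' criteria, and is not shown to be unoccupied. Each peak's pileup, fold enrichment (the ratio of pileup to local background, with 1 added to both) and −log10 q were taken from the authors' lists.

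Of the 51 genes, 7 had a control peak, or 13.7% (Wilson 95% interval 6.81% to 25.7%), against 9.28% of all protein-coding genes. In the TGF-β1 list 16 had one, or 31.4% (20.3% to 45.0%), against 25.3% overall. Both intervals include the share of all genes. Of the 51 genes, 5 had a summit in both lists (ERG, MECOM, HOPX, SOX6 and IKZF2), where 5.35% of all protein-coding genes did. A further 2 genes had a control peak alone (NFIA and LEF1), 11 a TGF-β1 peak alone, and 33 neither. These counts follow from those above and are not a separate result about the list. The TGF-β1 list was the longer one over the whole genome, and its larger number of members is read beside that.

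The members held 9 control and 28 TGF-β1 summits, a ratio of 3.11 (exact interval 1.43 to 7.49), and all protein-coding genes together a ratio of 3.51 (3.35 to 3.68). Over the 9.94 Mb of genome assigned to the members, this was 0.906 control summits per Mb (Poisson interval 0.414 to 1.72) and 2.82 TGF-β1 summits per Mb (1.87 to 4.07). The corresponding densities over all protein-coding genes were 1.12 and 3.92 per Mb, both inside the members' intervals.

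**Figure D1:**
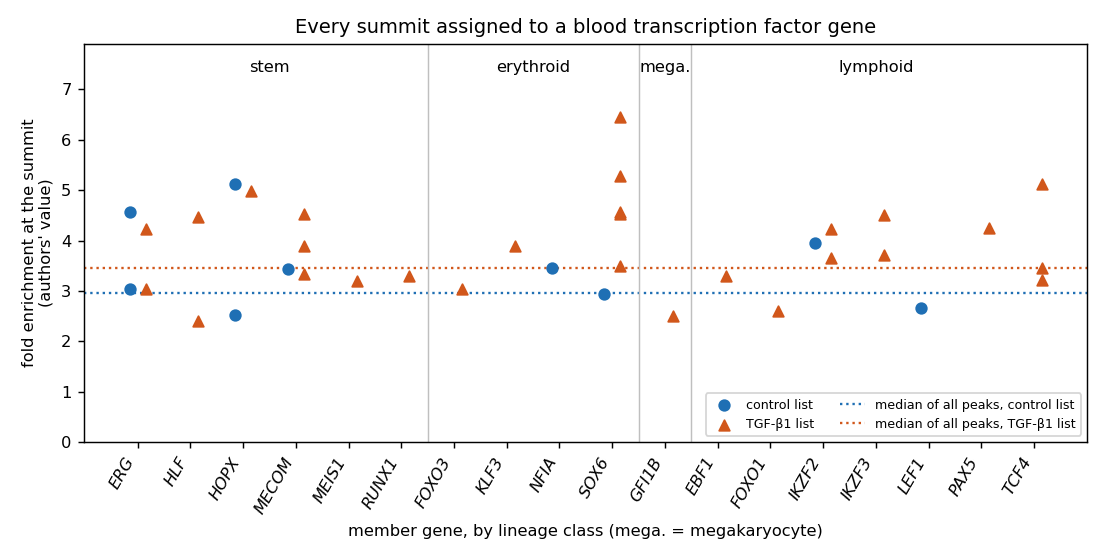
Fold enrichment (vertical axis, the authors' value) of each control summit (circles) and TGF-β1 summit (triangles) at the 18 genes that had any, grouped by lineage class, with the median of each whole list dotted. SOX6 has the highest value, 6.45, and no myeloid gene appears.

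Gene length went with these counts. Every member with a peak had a body over 30 kb, and none of the 18 members up to 30 kb had one in either list, for which the Wilson upper limit is 17.6%. Among all protein-coding genes of that length a peak was present at 3.7% in the control list and 11.6% in the TGF-β1 list. Of the 12 members over 30 and up to 100 kb, control summits marked 1 and TGF-β1 summits 4, and the shares for all such genes were 9.32% and 29.5%. Of the 21 members over 100 kb, 6 (28.6%) were in the control list and 12 (57.1%) in the TGF-β1 list, beside 27.9% and 64.2% of all genes of that length. Within each length band the Wilson interval of the members included the share of all genes. Up to 30 kb it could not have fallen below that share, since even 0 of 18 leaves an upper limit of 17.6%. The bands were chosen with earlier results of these data known. The members were longer than most genes, with a median body of 60.2 kb against 24.1 kb, and the part of length in the class counts below was not tested.

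**Figure D2:**
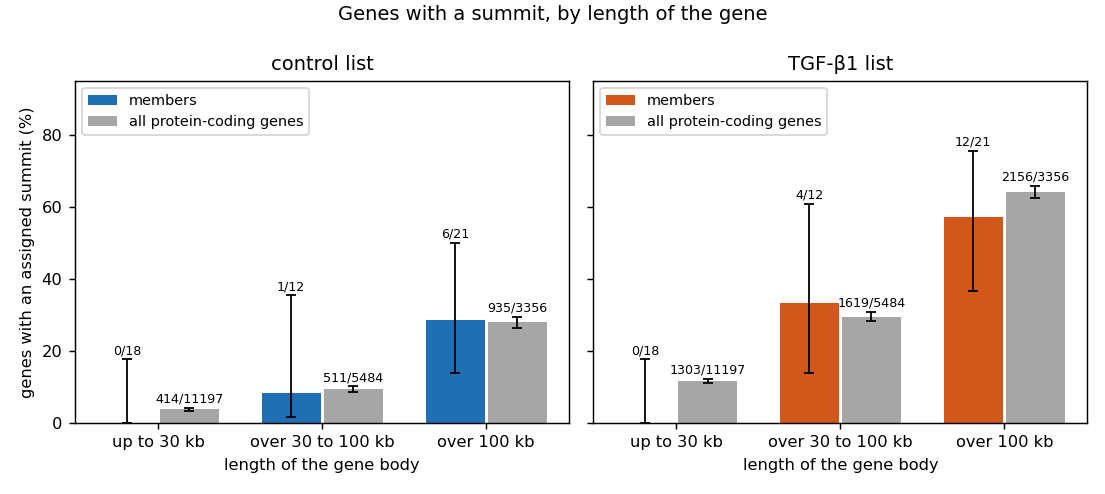
Percentage of genes with an assigned summit (vertical axis) in 3 bands of gene body length, for the 51 members (coloured bars) and all protein-coding genes (grey bars), with Wilson 95% intervals and counts above them. Shares climb with length in both lists, and the members' intervals include the grey bars in every band. Up to 30 kb, with 18 members, an interval could not have fallen below the grey bars.

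Sequence near the few starts that lay close to a summit is shown first, because most summits lay far from any listed start of their own gene. Starts of other genes were not measured. RefSeq start regions (250 bases before and 50 after the start) were at hand for 43 members, 96 regions in all on GRCh38.p14, the others being SPI1, CBFB, FLI1, PRDM16, LMO2, KLF3, IKZF3 and NFE2. Neither list had a peak overlapping any of these regions. No member summit lay within 1 kb of a listed start of its gene. Within 5 kb lay 2 of the 25 TGF-β1 summits at genes with listed starts, and 0 of 9 control summits. The matching counts over all start regions and all assigned peaks were not made, so these are not read as particular to the members. Of the 2 summits, 1 lay downstream of an internal start of ERG and 1 downstream of the first start of GFI1B. The regions of these 2 starts are given 5′ to 3′ on the strand of the gene. The first start of MECOM, which lay 9.12 kb downstream of a control summit, is added. Capitals mark the bases from the start onward.

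ERG, chr21:38584896-38585195, minus strand: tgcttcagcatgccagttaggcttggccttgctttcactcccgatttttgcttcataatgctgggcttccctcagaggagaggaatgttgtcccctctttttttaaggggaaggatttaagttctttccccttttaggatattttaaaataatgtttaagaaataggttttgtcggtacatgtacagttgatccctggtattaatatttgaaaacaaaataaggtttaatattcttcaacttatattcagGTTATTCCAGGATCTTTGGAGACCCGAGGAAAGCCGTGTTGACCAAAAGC

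GFI1B, chr9:132945281-132945580, plus strand: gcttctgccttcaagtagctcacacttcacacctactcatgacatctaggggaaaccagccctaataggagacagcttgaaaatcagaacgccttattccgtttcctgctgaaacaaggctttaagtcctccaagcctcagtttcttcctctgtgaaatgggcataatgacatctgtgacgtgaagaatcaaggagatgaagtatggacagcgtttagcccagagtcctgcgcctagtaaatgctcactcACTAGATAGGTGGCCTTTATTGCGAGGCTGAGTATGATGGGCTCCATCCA

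MECOM, chr3:169663663-169663962, minus strand: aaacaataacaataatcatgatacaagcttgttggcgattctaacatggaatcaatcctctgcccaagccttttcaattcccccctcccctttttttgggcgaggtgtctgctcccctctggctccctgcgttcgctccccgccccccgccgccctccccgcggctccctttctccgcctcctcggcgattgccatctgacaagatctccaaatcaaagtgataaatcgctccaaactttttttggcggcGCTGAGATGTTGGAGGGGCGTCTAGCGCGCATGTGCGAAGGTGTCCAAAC

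Of 6 short motifs searched on both strands, the ERG and GFI1B regions held none and the MECOM region 1 SMAD motif (CAGAC). Over the 96 member regions, some of which overlap each other, 38.5% held CAGAC, against 45.3% of all 35116 RefSeq start regions. For the others the member and overall shares were 6.25% and 7.71% for AP-1 (TGANTCA), 9.38% and 10.3% for the GATA factors' AGATAA, 7.29% and 17.9% for the E-box CAGCTG, 14.6% and 13.1% for the RUNX motif TGTGGT and 11.5% and 22.8% for the ETS motif ACTTCC. None of these 6 motifs contains another. They describe letters in these windows, in which no peak was called.

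The 17 stem cell and early progenitor genes included 3 with control and 6 with TGF-β1 summits. ERG, HOPX and MECOM were in both lists. HLF, MEIS1 and RUNX1 had TGF-β1 peaks alone. The shares of the class in the control and TGF-β1 lists were 17.6% (6.19% to 41.0%) and 35.3% (17.3% to 58.7%). Over all protein-coding genes they were 9.28% and 25.3%.

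ERG, an ETS factor needed to maintain blood stem cells (chromosome 21, 38367261 to 38661783), held the closest pair of summits from the 2 lists. A control peak at 38603974 to 38604121 had pileup 17, fold 3.05 and −log10 q 2.22. A TGF-β1 peak at 38604206 to 38604369 also had a pileup of 17, with fold 3.04 and −log10 q 2.42. Their summits were 0.192 kb apart, and the called intervals were separated by 84 bp and did not overlap. Local background was 4.91 tags at both, so the called summits were equally high above it. A second control peak, 3.16 kb from that TGF-β1 summit at 38607409 to 38607661, had pileup 21, fold 4.57 and −log10 q 6.001. The second TGF-β1 peak, at 38582782 to 38582921, had a pileup of 13 and a fold of 4.22 and lay 2.14 kb downstream of the internal start printed above.

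HOPX encodes a small homeodomain protein linked to stem cell quiescence (chromosome 4, 56647998 to 56681706). It held a control peak in the gene at 56670720 to 56670897, with a pileup of 25 over a background of 9.27 and so a fold of only 2.53. A TGF-β1 peak at 56668000 to 56668144, 2.77 kb further into the gene, had fewer tags, 18, but a background of 2.82 and a fold of 4.97. The strongest member peak of the control list lay 59.6 kb upstream of HOPX at 56741194 to 56741353, with pileup 24, fold 5.13 and −log10 q 8.11. It ranked 171 of 5307 by fold, and no TGF-β1 summit lay within 73.2 kb of it.

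MECOM, which encodes the stem cell factor EVI1 (chromosome 3, 169083507 to 169663712), had its summits in different places in the 2 lists. Its control peak, at 169672719 to 169672964, was upstream of the gene with pileup 23, fold 3.43 and −log10 q 4.00. The 3 TGF-β1 peaks were all inside the 580 kb body. They lay at 169550772 to 169550907 (fold 4.52), 169488442 to 169488600 (fold 3.90) and 169396775 to 169396913 (fold 3.34), with pileups of 14, 18 and 22. The order of fold was thus the reverse of the order of pileup, since local background ran from 2.32 to 3.88 to 5.90 tags. The nearest pair of control and TGF-β1 summits was 122 kb apart.

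HLF, a bZIP factor that marks long-lived stem cells (chromosome 17, 55264960 to 55325187), had a TGF-β1 peak inside the gene at 55281360 to 55281520 with pileup 21, fold 4.46 and −log10 q 5.74. A weaker one at 55341035 to 55341198, 16.0 kb past its end, had fold 2.41 and −log10 q 1.48. The nearest control summit was 1237 kb away. For MEIS1, the DNA-binding partner of HOXA9, the single TGF-β1 peak (chromosome 2, 66642470 to 66642654, pileup 15, fold 3.19) lay 68.7 kb downstream of the gene, in the non-coding gene LINC01798. At RUNX1, which is required for the emergence of blood stem cells, the single peak (chromosome 21, 34757825 to 34758007, pileup 12, fold 3.29) lay 29.9 kb downstream, in the non-coding gene LINC01426. Both non-coding genes are nearer to these summits than the factor itself.

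The other 11 stem cell genes had no peak, and none of them had a summit within 100 kb. Of all protein-coding genes, 53.8% had a TGF-β1 summit and 20.7% a control summit within 100 kb, whichever gene was nearer. The 11 genes include GATA2 and TAL1, at the top of the stem cell program, and the bridging partners LMO2 and LDB1. They also include LYL1, the close relative of TAL1, HOXA9 and NFIX. The TGF-β1 summit nearest to GATA2 was 393 kb away and the one nearest to TAL1 119.5 kb, with control summits at 1052 kb and 1718 kb. CBFB, the partner of RUNX1, had a TGF-β1 summit 225 kb and a control summit 2517 kb away. MYB, which drives the growth of progenitors, came closest, with a TGF-β1 summit 112.9 kb away that was assigned to HBS1L. PRDM16, with a body of 369 kb, and ETV6, with 246 kb, were among the genes without a peak. Among all protein-coding genes over 100 kb, TGF-β1 summits marked 64.2% and control summits 27.9%, so long genes without one were common. The part of length at PRDM16 and ETV6 was not tested.

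**Figure D3:**
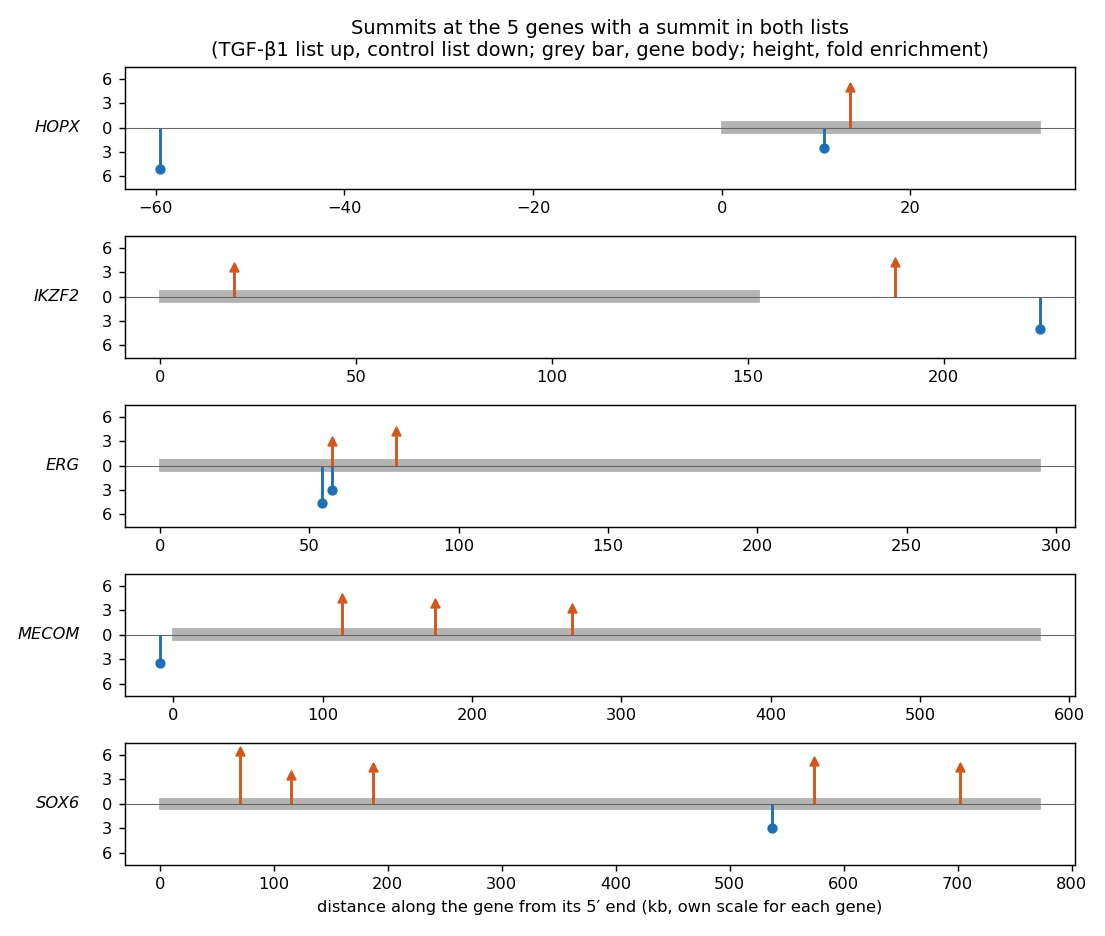
Positions of the summits along the 5 genes with a summit in both lists, in kb from the 5′ end of each gene (horizontal axis, own scale per gene), with fold enrichment as height, TGF-β1 upward and control downward. The 2 lists meet within 1 kb at ERG alone, while at MECOM the nearest pair is 122 kb apart.

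Across the 5 genes with both, no control peak overlapped a TGF-β1 peak, and ERG was the single gene with summits of both lists within 1 kb. Among all 1071 protein-coding genes with a summit in both lists, 66, or 6.16%, had such a pair. For SOX6 the closest pair was 36.3 kb apart and for IKZF2 36.8 kb. At the other 4 genes the called summits of the lists lay more than 1 kb apart, as at most genes with both, so this is not particular to the members. With 1 library per group, it was not tested whether the sites themselves differed. The share of all such genes with overlapping peaks is not given here.

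Of the 11 erythroid genes, 2 had a control peak (18.2%, 5.14% to 47.7%) and 3 a TGF-β1 peak (27.3%, 9.75% to 56.6%). Over all protein-coding genes the shares were 9.28% and 25.3%. SOX6 was in both lists, NFIA in the control list alone, and KLF3 and FOXO3 in the TGF-β1 list alone. The factors that open the red cell program, GATA1 and KLF1, were in neither. The genome assigned to them by the nearest-gene rule was short, 18 kb and 6 kb, beside a median of 57 kb over all protein-coding genes.

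SOX6 encodes an HMG-box factor that works with BCL11A to silence embryonic and fetal globin genes, and its gene is very long (chromosome 11, 15966449 to 16738477, 772 kb). It had 5 TGF-β1 peaks, all inside the body, a number that 0.794% of protein-coding genes reached. At the mean density of TGF-β1 summits its stretch of genome would hold 3.42. The strongest, at 16668123 to 16668329, was the highest of all member peaks, with a pileup of 27 over a background of 3.34, fold 6.45 and −log10 q 11.6. It ranked 58 of the 15993 TGF-β1 peaks by fold. Of the others, the highest lay at 16164612 to 16164773 (pileup 17, fold 5.29, −log10 q 6.04) and at 16036146 to 16036355 (pileup 17, fold 4.56, −log10 q 4.86). The remaining 2 had folds of 4.52 and 3.49. The summits with folds of 4.56 and 3.49 also lay in other annotated genes, LOC105376572 and LOC105376571. The control list had 1 peak in SOX6, at 16200845 to 16201007, and it was weaker than all 5 by fold, with a pileup of 18 over a background of 5.45 and a fold of 2.94. Of the 5 TGF-β1 summits, the nearest to it was 36.3 kb away.

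NFIA, a factor that favours the red cell over the granulocyte fate, had a control peak 78.3 kb past the end of the gene (chromosome 1, 61541082 to 61541229) with pileup 25, fold 3.45 and −log10 q 4.45. Its nearest TGF-β1 summit was 278 kb away. At the mean densities its stretch of genome would hold 2.30 TGF-β1 and 0.654 control summits, and the difference between the lists at this gene was not tested. KLF3, a repressor induced by KLF1, had a TGF-β1 peak in its body (chromosome 4, 38682192 to 38682364, pileup 15, fold 3.90, −log10 q 3.39). FOXO3, which protects maturing red cells from oxidative damage, had one in its body as well (chromosome 6, 108622176 to 108622312, pileup 17, fold 3.04, −log10 q 2.42). Control summits were 135 kb from KLF3 and 501 kb from FOXO3.

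Of the 8 erythroid genes without a TGF-β1 peak, 4 had a summit within 100 kb that lay nearer to another gene. For GATA1 it lay 53.7 kb away and was assigned to SUV39H1, with fold 4.81 and −log10 q 5.55. For BCL11A, whose product represses fetal globin, it lay 71.4 kb away (fold 4.56, −log10 q 5.65) and was assigned to LOC124906010. STAT5A and STAT5B, which carry the erythropoietin signal and lie side by side, shared 1 summit, 16.7 kb and 40.2 kb from them (fold 3.92), which was assigned to STAT3. KLF1 was 108.4 kb from its nearest TGF-β1 summit, which was assigned to HOOK2, ZBTB7A 215 kb and ZFPM1, the GATA1 cofactor, 407 kb. Apart from SOX6 and NFIA, none of the erythroid genes had a control summit within 100 kb, and STAT5A, at 132.9 kb, came closest.

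GFI1B, a repressor needed for platelet and red cell formation, was the single megakaryocyte gene of 3 with a peak. Its TGF-β1 peak (chromosome 9, 132947634 to 132947877) lay inside the gene, 2.13 kb downstream of the first start printed above, and so was, with that of ERG, one of the nearest to a listed start. Its pileup, 26, was second only to that of SOX6, but stood over the highest local background of any member peak, 9.83 tags, which gave fold 2.49 and −log10 q 2.40. FLI1, the ETS factor of megakaryocytes, and NFE2, which drives platelet release, had none, with TGF-β1 summits 118 kb and 244 kb away. When 7 genes placed in other classes but also used by megakaryocytes were added (GATA1, GATA2, ZFPM1, RUNX1, MECOM, ETV6 and TAL1), 3 of 10 had a TGF-β1 peak and 1 of 10 a control peak. Over all protein-coding genes the shares were 25.3% and 9.28%.

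None of the 6 myeloid genes had a peak in either list, and the Wilson upper limit for 0 of 6 genes is 39.0%. All 6 have bodies up to 30 kb, with a median of 8.24 kb, and the genome assigned to them came to 0.476 Mb. Summits did lie near 3 of them. CEBPE, a factor of late granulocyte maturation, had a TGF-β1 summit 39.3 kb away (fold 5.57, −log10 q 7.797) and a control summit 75.5 kb away (fold 4.48, −log10 q 6.39), assigned to SLC7A8 and RNF212B. CEBPB, the C/EBP protein of emergency granulopoiesis, had a TGF-β1 summit 72.9 kb away (fold 5.19), assigned to PEDS1-UBE2V1. GFI1, the granulocyte counterpart of GFI1B, had a TGF-β1 summit 91.7 kb and a control summit 93.3 kb away. SPI1 and CEBPA, which set the myeloid fate, were 284 kb and 287 kb from their nearest TGF-β1 summits and 394 kb and 524 kb from control summits. IRF8, needed for monocytes and dendritic cells, was 226 kb from a TGF-β1 and 1204 kb from a control summit.

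The 14 lymphoid genes had 2 control peak genes (14.3%, 4.01% to 39.9%) and 6 TGF-β1 peak genes (42.9%, 21.4% to 67.4%), the largest share of the 5 classes in the TGF-β1 list. Over all protein-coding genes the shares were 9.28% and 25.3%. The lymphoid genes were also the longest class, with a median body of 105 kb and 9 of 14 genes over 100 kb. Their 3.05 TGF-β1 summits per Mb (1.46 to 5.61) lay beside 2.82 (1.35 to 5.18) for the stem cell genes and 2.98 (1.20 to 6.13) for the erythroid genes. Per length of genome, the intervals of these 3 classes overlapped almost entirely, and all included the 3.92 per Mb of all protein-coding genes. They rest on 10, 10 and 7 summits and are too wide to tell the classes apart.

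IKZF2, which encodes the Ikaros family protein Helios (chromosome 2, 212999698 to 213152456), was the lymphoid gene with a summit in both lists. Its control peak (212927898 to 212928045, pileup 18, fold 3.94, −log10 q 4.00) lay 71.8 kb past the end of the gene. One TGF-β1 peak (212964648 to 212964783, pileup 24, fold 4.23, −log10 q 6.05) lay 35.0 kb past the end, in the non-coding gene LOC102725082. The other (213133521 to 213133688, pileup 17, fold 3.65) lay inside. IKZF3, which encodes Aiolos, had a TGF-β1 peak inside the gene (chromosome 17, 39804281 to 39804423, fold 3.72) and one 1.58 kb beyond its higher coordinate (39865827 to 39865988, fold 4.51, −log10 q 5.84), each with a pileup of 21. No start region of IKZF3 was at hand, so the distance of this outer summit from a start was not measured. It could be nearer to one than the summits of ERG and GFI1B. IKZF1, the founding Ikaros gene, had none, and the TGF-β1 summit 38.5 kb from it was assigned to FIGNL1.

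TCF4, the E protein of plasmacytoid dendritic cells and B cells (chromosome 18, 55222185 to 55635957), had 3 TGF-β1 peaks, all outside its body. The strongest (55218882 to 55219026, pileup 16, fold 5.13, −log10 q 5.48) lay 3.21 kb past its end and ranked 688 by fold. Another lay 10.4 kb past the end (55211718 to 55211885, fold 3.45), and the third 9.66 kb upstream (55645486 to 55645636, fold 3.21). No control summit lay within 766 kb. TCF3, the E protein of early B cells, stood at the other extreme, since it was the member farthest from any summit, 1426 kb in the TGF-β1 and 7467 kb in the control list.

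The B cell factors PAX5, EBF1 and FOXO1 each had 1 TGF-β1 peak and no control peak. The PAX5 peak lay inside the gene (chromosome 9, 36949152 to 36949337, pileup 18, fold 4.25, −log10 q 4.60). The EBF1 peak lay 15.0 kb past the gene's end (chromosome 5, 158680841 to 158681028, pileup 12, fold 3.29, −log10 q 2.04). The FOXO1 peak lay inside (chromosome 13, 40645828 to 40646006, pileup 17, fold 2.61, −log10 q 1.70). Of these 3, PAX5 had the clearest enrichment, whereas the FOXO1 peak was close to the limit of the list.

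LEF1, a TCF/LEF factor of early T and B cells, had a control peak alone, near the far end of the gene (chromosome 4, 108057908 to 108058094, pileup 22, fold 2.66, −log10 q 2.15). A TGF-β1 summit lay 69.7 kb from LEF1 (fold 3.55) but nearer to LOC124900752. Its relative TCF7 had no peak, although a TGF-β1 summit stood 4.48 kb from the gene (fold 3.91, −log10 q 3.81), because SKP1 was nearer. The T cell genes GATA3, BCL11B and RUNX3, and IRF4, a factor of plasma cells, had no summit of either list within 100 kb. The control summit nearest to GATA3 was 119.6 kb away.

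**Figure D4:**
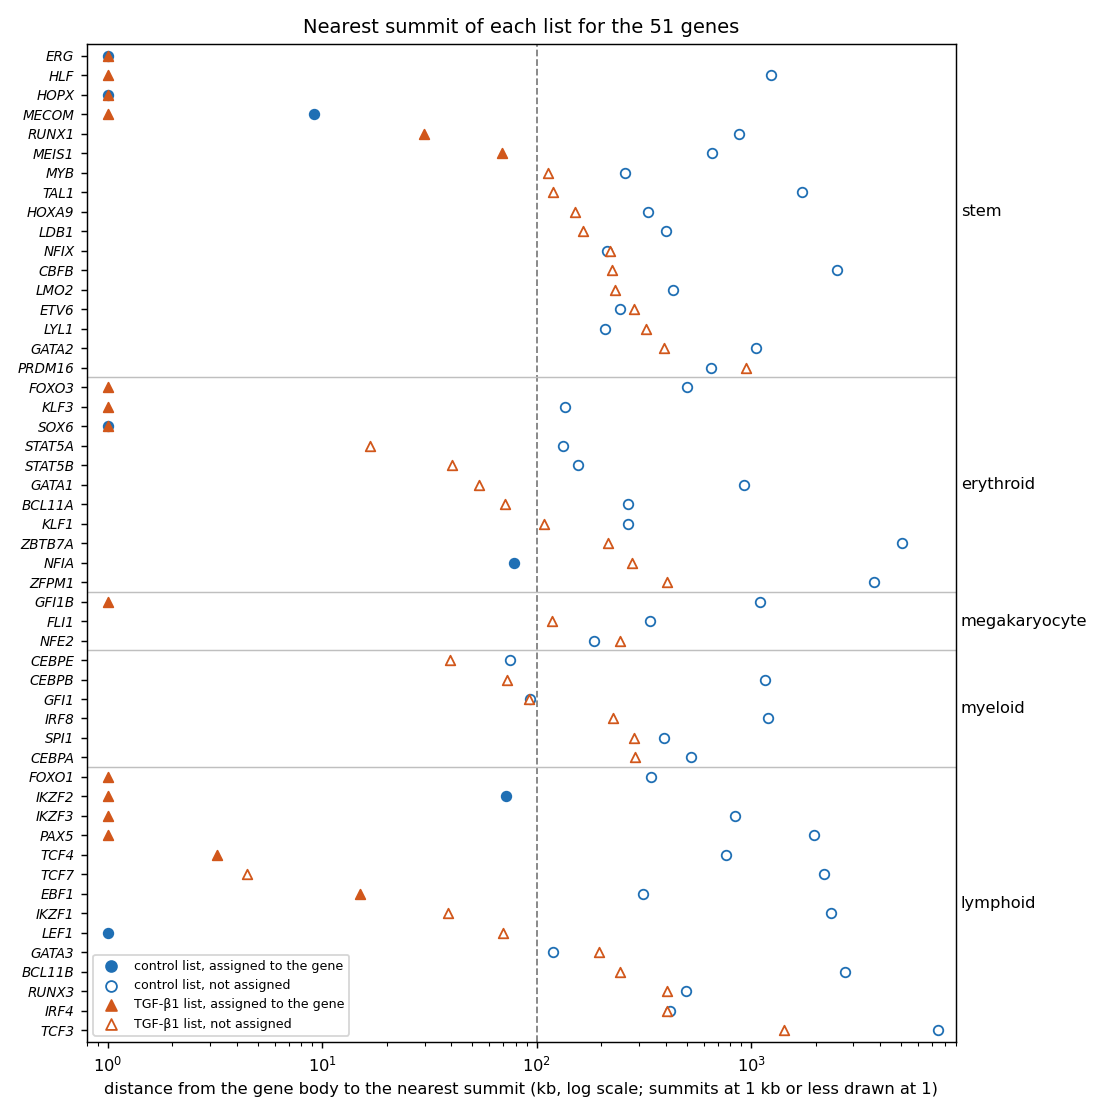
Distance from each of the 51 genes to the nearest summit of each list (horizontal axis, kb, log scale), grouped by class, with filled symbols for summits assigned to the gene and open ones for all others. The dashed line is the 100 kb limit. Open triangles left of it are 10 genes, from TCF7 at 4.48 kb to GFI1 at 91.7 kb, whose nearby TGF-β1 summit was closer to another gene.

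In strength the member peaks resembled the other peaks near genes. Their median fold was 3.43 in the control list and 3.81 in the TGF-β1 list, beside 3.41 and 3.62 for all peaks assigned to protein-coding genes. Gene bodies held 5 of the 9 control summits (55.6%) and 19 of the 28 TGF-β1 summits (67.9%), beside 55.0% and 60.4% over all such peaks. In all, 2 of the 9 control and 7 of the 28 TGF-β1 peaks reached a −log10 q of 5, as did 24.3% and 17.9% of all peaks assigned to protein-coding genes. No member peak lay over a local background above 5 times the genome-wide value or in a 1 Mb bin with 20 or more peaks. By fold, the member peaks of the TGF-β1 list ran from the SOX6 peak at rank 58 to the second HLF peak at rank 14622.

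A list of 68 other blood transcription factors and cofactors, outside the 51, was described in the same way. A control peak was present at 13 of them (19.1%) and a TGF-β1 peak at 23 (33.8%), beside 9.28% and 25.3% of all protein-coding genes. Of the 68, 11 were in both lists, where 5.35% of all protein-coding genes were. No intervals were computed for this list. In the TGF-β1 list the highest folds were at RORA (5.58), a nuclear receptor of innate lymphoid cells, NFIL3 (5.13), needed for natural killer cells, BACH2 (4.99), a B and T cell repressor, PRDM1 (4.99), the regulator of plasma cells, and TCF12 (4.92), the third E protein. In the control list they were at TCF12 (4.97), RORA (4.83), BACH1 (4.45), a heme-sensing repressor, SSBP2 (4.34), a partner of LDB1, and LMO4 (4.29). Their median body was 37.1 kb.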

How the data were processed

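ChIP-seq peak lists of 1 control and 1 TGF-β1 sample were used. Per the submitters' processing notes, Bowtie2 served for alignment, hg38 as the genome and MACS2 2.1.0 for peaks; the MACS version in the file headers is 2.2.7.1. Per the file headers, 1 ChIP and 1 input library went into each list, the q-value limit was 0.05 and 1 tag was kept at a position. The deposited pileup is a signal (tag coverage at the summit), the deposited fold enrichment a ratio to local background, and the −log10 p-value and the −log10 q-value, as deposited, come from the authors' caller. Tag length was 60 bp and 43 bp and fragment length 148 bp and 136 bp (control first), per the file headers.

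Local background was computed as (pileup + 1)/fold − 1. Summits were assigned to genes of RefSeq GRCh38.p14 with Python 3.11.15, and the assignment was checked on planted summits. The genome assigned to a gene was measured on a 1 kb grid. Exons, introns and the sequence under the peaks were not analysed, so the motif search planned for summits was made on RefSeq start regions. Members, classes, length bands and gene lists were chosen with earlier results of these data known. The rule for naming took every member with a peak, the 5 members nearest to a summit without having one, the factors that define a lineage (GATA1, KLF1, TAL1, GATA2, RUNX1, SPI1 and CEBPA) and, of the 68 other genes, the 5 of highest fold in each list. The remaining members are named for their distances, after these were seen. Classes were compared by counts, Wilson shares, exact Poisson densities and exact ratio intervals at 95%, with no test. The alternatives were other distance, neighbour, strength and background limits.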

Additional observations from a re-analysis of the deposited data

How the results depend on the processing

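Under 9 other settings, 1 chosen after the data were seen (the same p limit in both lists) and 2 stricter meanings of a shared site, 22 of 32 values of the 3 main counts stayed within 1.5 times the reported 7 (control), 16 (TGF-β1) and 5 (both). With summits inside the gene body, the control count was 4 (7.84%, beside 5.5% of all protein-coding genes) and the count in both 3. With nearer genes disregarded, the TGF-β1 count was 26 of 51 (beside 53.8% of all genes) and the count in both 8. Keeping peaks with −log10 q from 5 upward, the counts were 2 (3.92%, beside 2.14% of all genes), 6 (11.8%, beside 6.55%) and 1 (HOPX). With lists of equal length by fold, 10 members had a TGF-β1 peak, or 19.6%, beside 11.8% of all genes. Overlapping peaks left 0 genes in both lists, and summits within 1 kb left 1 (ERG). The counts by class moved by more than 1.5 times for 17 values and stayed within that for 83. With nearer genes disregarded, erythroid genes with a TGF-β1 peak went from 3 to 7, and myeloid genes from 0 to 3 (TGF-β1) and 0 to 2 (control). At −log10 q from 5 upward, TGF-β1 peaks were left at 2 of 6 stem cell, 1 of 3 erythroid, 0 of 1 megakaryocyte and 3 of 6 lymphoid genes, and control peaks at none of the 2 erythroid and 2 lymphoid genes. With a limit of 10 kb, with summits inside the body or with all annotated genes as neighbours, the erythroid and the lymphoid control counts each went from 2 to 1. No member peak lay over high background or in a dense bin, so removing such peaks could not change the 3 counts or the class counts. The values of these settings are among the 22 and the 83. With 1 library per group, no replicate could be left out. Depth sets which weak peaks were called, and 1 library per group leaves replicate error unknown.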
